A study of Mus musculus with 97 samples.

Results

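The genes described here are 10 classical genes of the primitive endoderm, Gata4, Gata6, Sox7, Sox17, Pdgfra, Dab2, Lama1, Lamc1, Col4a1 and Col4a2, followed through RNA sequencing of mouse embryonic stem (ES) cells. They were chosen by symbol from a deposited count table of 37620 entries, in which the 10 symbols hold 11 entries. The eleventh, a second Dab2 entry (ENSMUSG00000079102), was at 0 in every library and is not considered further. All 10 genes passed the filter on low counts, which kept 16011 entries.

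The RNA libraries are 18 of the 97 libraries of a study of transcription factor binding and chromatin in interphase and mitosis of ES cells. They come from a GFP Sox2-AID line, whose Sox2, a pluripotency factor, is fused to a degron that makes the protein unstable once the plant hormone auxin is added. Cells grown on gelatin in serum and LIF either received 0.5 mM auxin for 3 h or none, were stained with Hoechst at 20 µM for the last 20 min, and were then separated by DNA stain and GFP into cells of early G1, of late G1 and of G2. Each phase and treatment has 3 libraries, the untreated cells carry the same Sox2-AID allele, and the labels name inhibitors of MEK and GSK3 for the medium only where required, without saying in which samples. The comparison of auxin with none asks how transcripts of cells collected in each phase differ after the loss of Sox2. Auxin was given before sorting, so the phase is that of collection and not of the start of the loss. No line without the degron was treated among these libraries, so effects of auxin itself and of Sox2 loss cannot be told apart. The labels do not say whether the libraries of a group came from separate cultures, so p-values measure the spread between these libraries, which may be technical.

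The primitive endoderm is the layer of the blastocyst that forms from the inner cell mass beside the pluripotent epiblast and goes on to build the yolk sac. FGF signalling raises the GATA factors Gata6 and Gata4 in its precursors while Nanog and Sox2 are lost from them, the receptor Pdgfra marks them early, and the SoxF factors Sox17 and Sox7 and the endocytic adaptor Dab2 follow. The mature layer lays down a basement membrane made of laminin, whose alpha 1 and gamma 1 chains are encoded by Lama1 and Lamc1, and of type IV collagen, encoded by Col4a1 and Col4a2. ES cells in serum are known to contain rare cells that drift towards this fate.

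The libraries held 24841963 to 37587322 counts, of which the 10 genes made up 0.0339% to 0.0622%. Levels within a gene are given as CPM, counts scaled to library size with TMM factors, and levels between genes as TPM, which also allow for gene length. Sox2 mRNA, which the degron does not act on and which checks neither the depletion nor the labels, was at 344 ± 50.4 CPM without auxin and 369 ± 45.1 with it in early G1 (SD, n = 3 in every group). The corresponding levels of Sox2 were 358 ± 57.7 and 379 ± 43.3 CPM for late G1, then 322 ± 45.4 and 341 ± 25.4 CPM for G2. The 19 ES cell identity genes, among them Pou5f1, Nanog and Zfp42, summed to 4576 to 5169 CPM per library. Of 16 fibroblast or feeder markers, 9 were tested and none was called for auxin by edgeR, the list summed to 17.0 to 29.8 CPM, Col5a1 and Pdgfrb had the highest medians at 10.7 and 4.34 CPM, and Dcn, Lum, Postn, Mgp and Twist2 had at most 6 counts in any library.

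Several libraries stood apart on endoderm genes. The auxin-treated early G1 library numbered 1 held 279 counts of Apoa1, 83 of Ttr, 205 of Apob and 86 of Hnf4a, genes of visceral endoderm and of liver, where the other 17 libraries held at most 42, 3, 90 and 49. The same library held 1479 counts of Alb, 430 of Mup20, 481 of Cyp3a11 and 362 of Serpina3k, which adult liver expresses, against at most 8, 0, 5 and 5 in the other 17, a set of genes chosen after their values were seen. Pdgfra was higher in this library than in any other, and 2 of the other members, Col4a1 and Col4a2, ranked second there. The auxin-treated G2 library numbered 2 had the highest CPM of 4 members, Gata6, Sox7, Sox17 and Dab2, and also of Foxa2, a transcription factor of visceral endoderm, at 0.766 CPM from 27 counts. The part of either library's make-up in the results was not tested, and values without each are given beside results that moved.

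Per length, the genes spanned a wide range. Lamc1 led at a median of 11.9 TPM over 18 libraries (6.28 to 15.2), followed by Col4a1 at 1.68 TPM (0.89 to 2.50), Lama1 at 1.41 TPM (0.54 to 2.20), Col4a2 at 0.61 TPM (0.34 to 0.93) and Dab2 at 0.49 TPM (0.32 to 1.06). The other 5 genes, all of them regulators or the receptor, sat far lower, with medians of 0.14 TPM for Sox7, 0.115 for Sox17, 0.10 for Gata6, 0.10 for Pdgfra and 0.06 for Gata4. Within the order, the ranges of Lamc1 and Col4a1 did not overlap, and the ranges of all other neighbours did. Raw counts show how thin the regulators were, at 7 to 45 per library for Gata4, 10 to 87 for Sox17, 23 to 96 for Gata6, 37 to 199 for Sox7 and 19 to 221 for Pdgfra, against 7732 to 13285 for Lamc1. In bulk samples, fewer cells of a type and less RNA per cell cannot be told apart.

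**Figure D1:**
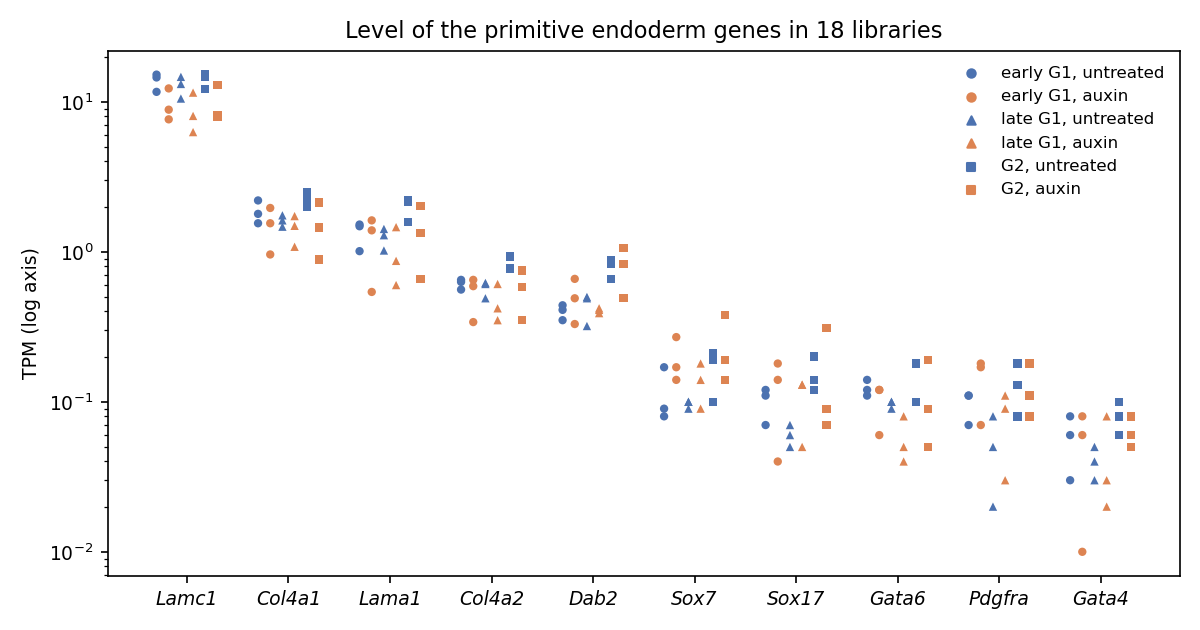
Level of each gene in TPM on a log axis, with a point for each of the 18 libraries, coloured by treatment and shaped by phase. Lamc1 lies between 6.28 and 15.2 TPM, above every library of every other member, and the 5 genes on the right reach at most 0.38 TPM.

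Transcripts of matrix chains that join in 1 complex were not at equal TPM, and protein was not measured. The TPM of Lamc1 was 5.63 to 14.4 times that of Lama1 in the same library (median 8.02). The TPM of Col4a1 was 2.41 to 3.57 times that of Col4a2 (median 2.82), a narrower spread. Laminin gamma 1 pairs with several alpha chains, whereas the alpha 1 and alpha 2 chains of type IV collagen are assembled together. Col4a1 and Col4a2 lie head to head, and their start windows in RefSeq (GRCm38.p6, 250 bases before the start to 50 after it) overlap by 78 bases, at chr8:11312777-11312854. Their sequences are shown because these genes share a start region, and capitals mark the shared stretch, which each window reads on its own strand. The Col4a1 window is chr8:11312777-11313076 on the minus strand and the Col4a2 window is chr8:11312555-11312854 on the plus strand.
Col4a1: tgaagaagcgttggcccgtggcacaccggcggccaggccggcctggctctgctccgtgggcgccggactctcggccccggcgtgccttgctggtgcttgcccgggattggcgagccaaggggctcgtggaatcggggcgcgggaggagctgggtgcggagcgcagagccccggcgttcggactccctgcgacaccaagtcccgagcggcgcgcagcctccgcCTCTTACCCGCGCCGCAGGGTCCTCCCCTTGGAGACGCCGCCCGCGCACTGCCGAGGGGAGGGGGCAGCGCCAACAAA
Col4a2: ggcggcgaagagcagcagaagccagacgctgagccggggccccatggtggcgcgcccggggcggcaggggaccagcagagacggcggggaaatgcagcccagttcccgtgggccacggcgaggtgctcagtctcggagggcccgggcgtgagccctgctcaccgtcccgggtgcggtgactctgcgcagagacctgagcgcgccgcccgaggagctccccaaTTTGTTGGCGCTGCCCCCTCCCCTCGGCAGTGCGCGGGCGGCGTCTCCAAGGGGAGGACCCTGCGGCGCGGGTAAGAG
Windows in the same table matched 4 of the 10 members, 5 windows in all, with Dab2 holding a pair and Pdgfra a single one. The GC box GGGCGG, searched on both strands, occurred 1 time in the Col4a1 window and 3 times in the Col4a2 window, and the CCAAT box CCAAT 1 time in each, where 35.7% and 37.4% of all 32851 windows of that length hold at least 1. The GATA motif AGATAA, on both strands, was found 1 time in 1 Dab2 window and in no other member window (11.2% of all windows), and the Sox motif ACAAT in none of the 5 (31% of all windows). These letters are a description of the windows and not of binding. Only part of the shared stretch lies after both starts. Whether the authors' counting used strand is not given in the sources used here, so how any reads in that part were assigned is not known.

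Sox7 rose and Lamc1 fell after 3 h of auxin, averaged over the 3 phases, and the other 8 genes did not pass the main test. A fit that allows for the library number, given with Pdgfra below, called that gene as well, among 3939 calls over all genes. In edgeR's quasi-likelihood test, with p-values adjusted over all 16011 genes, 1 member was called higher and 1 lower at an adjusted p under 0.05, where 2.6% and 3.09% of all tested genes were. The median log2 fold change of the 10 members was 0.00, and 0.01 over all tested genes. In single phases no member was called in early G1 (0.106% of all genes called), late G1 (1.02%) or G2 (0.668%). At an unadjusted p under 0.05 there were 3, 1 and 2 members, where 5.58%, 10.3% and 7.73% of all genes were, and DESeq2 also called none in any phase.

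Sox7, a SoxF transcription factor, stood at 1.39, 2.39 and 1.23 CPM in untreated early G1 libraries 1, 2 and 3, and at 2.63, 3.98 and 3.36 CPM with auxin. In late G1 it was at 1.55, 1.40 and 1.52 CPM without auxin and 1.84, 2.75 and 2.60 CPM with it. Untreated G2 libraries stood at 1.55, 3.09 and 2.91 CPM, and auxin-treated ones at 2.61, 5.65 and 3.53 CPM. The auxin libraries lay above all untreated ones in both G1 phases (as 5.25% of tested genes did in the early and 6.8% in the late phase), and overlapped them in G2. The average log2 fold change was 0.77 ± 0.18 (SE, adjusted p = 0.0159), a 1.71-fold rise, and Sox7 was higher with auxin in 9 of 9 pairs of libraries with the same number. The labels do not name such pairs. For Sox7 and the genes below, the share of all tested genes reaching such pair counts was not computed. It kept its call in all 18 fits that left out 1 library, at 0.82 (adjusted p = 0.0167) without the early G1 library that held liver genes and 0.65 (adjusted p = 0.0299) without the auxin-treated G2 library numbered 2. The call was lost on log2(TPM + 1), where the change was 0.08 (adjusted p = 0.136). The pseudocount exceeds every Sox7 level (0.08 to 0.38 TPM), so changes are compressed on that scale. On log2(TPM + 0.1) Sox7 was not called either. The call was also lost without libraries numbered 3, at 0.76 (adjusted p = 0.06) when the 3 untreated ones were left out and 0.75 (adjusted p = 0.231) when all 6 were. In early G1 alone the change was 0.99 ± 0.32 (adjusted p = 0.625), and a fit with the replicate number as a block, made because same-numbered libraries of that comparison deviated together, called it at 1.0 ± 0.22 (adjusted p = 0.0168; 0.768% of all genes were called higher in that fit).

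Lamc1, the gamma 1 chain that most laminins share, stood at 378, 388 and 381 CPM in untreated early G1 and at 300.2, 345 and 270.0 CPM with auxin. In late G1 it was at 355, 405 and 352 CPM without and 249, 346 and 276 CPM with auxin. In G2 it was at 386, 416 and 426 CPM without and 291, 377 and 259.8 CPM with auxin. All auxin libraries were below all untreated ones in each phase, as were 6.07%, 6.9% and 5.5% of tested genes in early G1, late G1 and G2. The SD was 5.34 CPM without and 37.6 CPM with auxin in early G1, 30.1 and 50.1 CPM in late G1, and 20.8 and 60.7 CPM in G2. The average log2 fold change was -0.36 ± 0.08 (SE, adjusted p = 0.00722), that is 0.778 of the untreated level, and Lamc1 was lower in 9 of 9 same-numbered pairs. The call held in all 18 fits without 1 library and on log2(TPM + 1), at -0.52 (adjusted p = 0.0286), and was lost at -0.29 (adjusted p = 0.184) without all 6 libraries numbered 3. With the replicate block it was also called lower in early (-0.33 ± 0.08, adjusted p = 0.0492) and late G1 (-0.36 ± 0.08, adjusted p = 0.0123), where 0.824% and 3.42% of all genes were called lower.

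**Figure D2:**
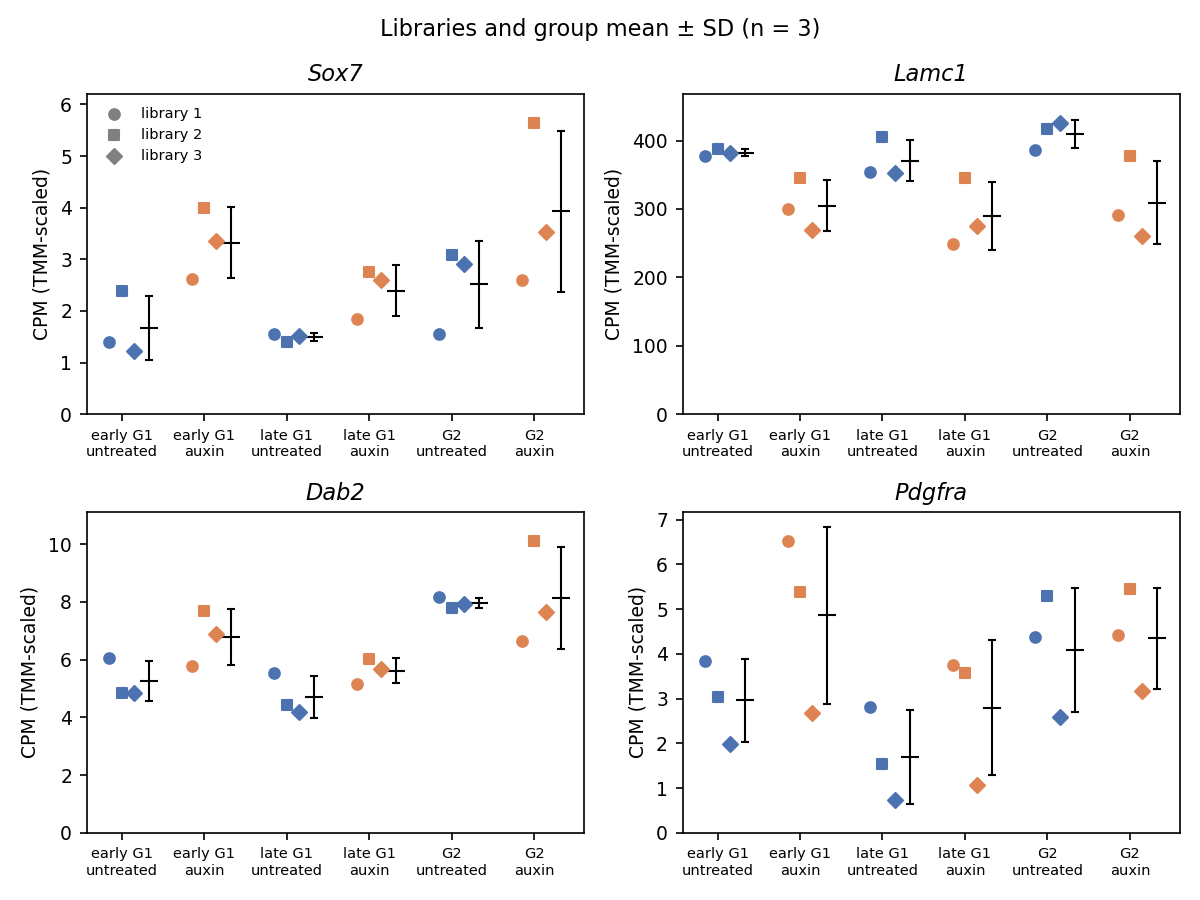
CPM of Sox7, Lamc1, Dab2 and Pdgfra in each library (marker shape gives the library number, colour the treatment), with the group mean and SD beside the points (n = 3). Lamc1 lies lower with auxin in every phase with no overlap, and Pdgfra is lowest in the library numbered 3 of all 6 groups.

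The GATA factors gave no call. Gata4 was at 0.818, 1.14 and 0.299 CPM in untreated early G1 and 1.12, 1.04 and 0.228 CPM with auxin, so that the spread within a group exceeded any shift between them. Its average log2 fold change was 0.12 ± 0.31, and 0.01 without the early G1 library that held liver genes or 0.02 without the auxin-treated G2 library numbered 2. Gata6, the first GATA factor of the lineage, was at 1.49, 1.37 and 1.44 CPM in untreated late G1 and 1.05, 1.25 and 0.82 CPM with auxin. Those late G1 values did not overlap, but the change of -0.47 ± 0.34 was not called (adjusted p = 0.679), where 6.9% of tested genes were lower without overlap, and the ranges overlapped in the other phases. The average for Gata6 was -0.21 ± 0.19 (adjusted p = 0.531), and -0.36 (adjusted p = 0.2) without that G2 library.

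Sox17, the other SoxF factor of the lineage, was higher with auxin in 8 of 9 same-numbered pairs, with an average change of 0.45 ± 0.27 that did not pass the test (adjusted p = 0.328). The exception was G2 library 1, at 1.90 CPM without auxin and 0.963 CPM with it. Without the auxin-treated G2 library numbered 2, the average for Sox17 was 0.27 (adjusted p = 0.54).

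Pdgfra, the receptor for PDGF-A, was at 3.85, 3.04 and 1.99 CPM in untreated early G1 and 6.52, 5.39 and 2.68 CPM with auxin. In late G1 it was at 2.82, 1.54 and 0.741 CPM without and 3.76, 3.57 and 1.07 CPM with auxin. In G2 it was at 4.39, 5.31 and 2.58 CPM without and 4.42, 5.45 and 3.18 CPM with auxin. The groups overlapped in every phase, and each auxin library was above the untreated library of the same number, by 1.01 to 2.32 times. The average was 0.50 ± 0.27 (adjusted p = 0.284), and 0.41 (adjusted p = 0.431) without the early G1 library that held liver genes, in which Pdgfra was highest. With the replicate number as a block, the average was called at 0.50 ± 0.13 (adjusted p = 0.00803). That fit called 3939 of 16011 genes in either direction, Sox7 and Lamc1 among them. Same-numbered libraries did not all deviate together in that comparison (lowest correlation 0.056). By the limit used here the block does not apply to it, and the call is given as a description only.

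Dab2, an adaptor for clathrin-mediated endocytosis, averaged 0.22 ± 0.09 with auxin (adjusted p = 0.184). Its early G1 values were 6.06, 4.84 and 4.85 CPM without and 5.78, 7.69 and 6.88 CPM with auxin, with higher values in libraries 2 and 3 only. In G2 the change was 0.03 ± 0.16, and -0.16 without the auxin-treated G2 library numbered 2, where Dab2 was highest.

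The remaining matrix genes did not pass either. The average change was -0.20 ± 0.22 for Lama1, -0.11 ± 0.15 for Col4a1 and -0.19 ± 0.13 for Col4a2 (adjusted p = 0.614, 0.683 and 0.42), and that of Col4a1 was -0.19 (adjusted p = 0.469) without the early G1 library that held liver genes. Their nearest approach to Lamc1 was in G2, where Lama1 changed by -0.42 ± 0.38, Col4a1 by -0.37 ± 0.26 and Col4a2 by -0.41 ± 0.23. Col4a2 in G2 was at 30.8, 22.8 and 23.8 CPM without auxin and 22.1, 22.7 and 13.4 CPM with it, which did not overlap (5.5% of tested genes were lower without overlap), but the adjusted p was 0.746. Lama1 in G2 ran from 72.1 to 107 CPM without and from 37.3 to 91.5 CPM with auxin. Without the auxin-treated G2 library numbered 2, the G2 median over the 10 genes went from -0.16 to -0.54 and 1 of 10 was positive in place of 4, with no call.

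**Figure D3:**
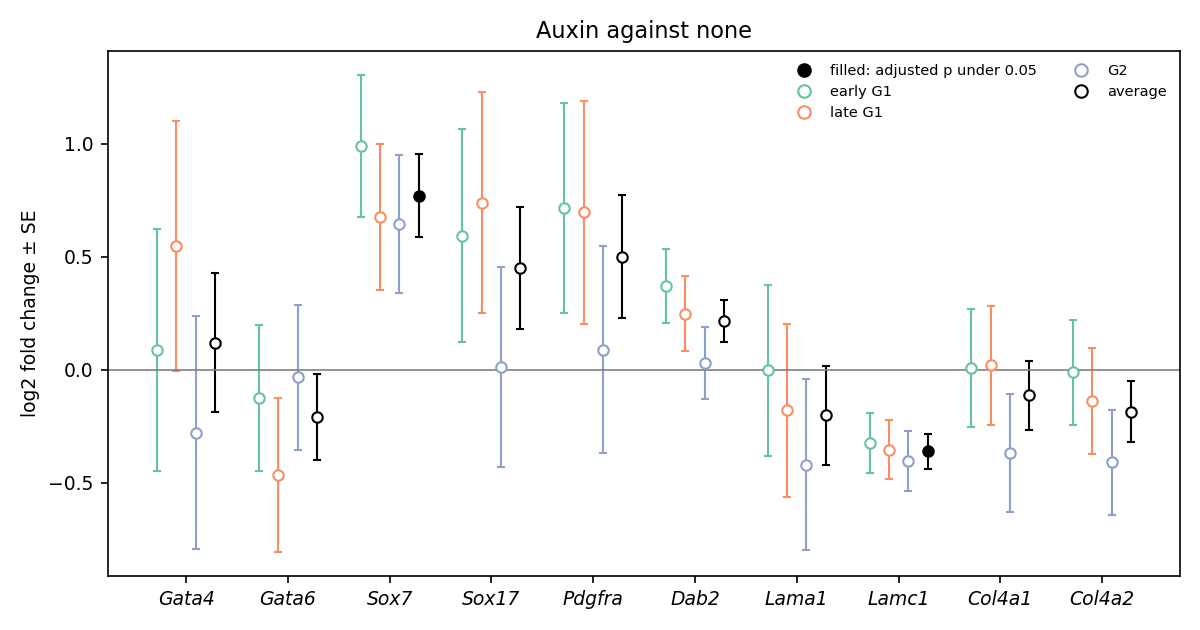
Log2 fold change of each gene with auxin against none (points, with bars of 1 SE) in early G1, late G1, G2 and averaged over the phases; filled points have an adjusted p under 0.05. Only the averages of Sox7 (0.77) and Lamc1 (-0.36) are filled, and the largest bars belong to Gata4, Sox17 and Pdgfra.

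The auxin effect was not shown to differ between phases for any member. In edgeR, 0 of 10 members were called for late against early G1, G2 against early G1 or G2 against late G1, as were 0% of all 16011 genes, and 0 members had an unadjusted p under 0.05 (1.39%, 1.39% and 1.36% of all genes). DESeq2 called none of the 10 in these differences either. The differences ran from -0.34 for Gata6 to 0.46 for Gata4 in the first, from -0.63 for Pdgfra to 0.09 for Gata6 in the second, and from -0.83 for Gata4 to 0.43 for Gata6 in the third. The change was lower in G2 than in early G1 for 9 of the 10 genes, with a median difference of -0.37 on the log2 scale against -0.00 over all genes, and no library entered both effects. That median was -0.19 without the early G1 library that held liver genes, with Gata4 at -0.05 in place of -0.37 and Col4a1 at -0.13 in place of -0.38, and -0.61 without the auxin-treated G2 library numbered 2.

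Without auxin, Dab2 was higher in G2 than in G1, and all 10 genes had positive estimates. Dab2 was at 8.16, 7.80 and 7.93 CPM in G2, at 6.06, 4.84 and 4.85 CPM in early G1, and at 5.55, 4.41 and 4.17 CPM in late G1. The G2 libraries lay above all others and within a narrow range. The log2 fold change was 0.75 ± 0.17 against late G1 (adjusted p = 0.0103, 1.69-fold) and 0.60 ± 0.16 against early G1 (adjusted p = 0.0493, 1.52-fold). The first was called in 17 of 18 fits that left out 1 library, with an adjusted p of up to 0.0585 without the untreated late G1 library numbered 2, and the second in only 5 of 18, with up to 0.171 without the untreated early G1 library numbered 3. Neither was called on log2(TPM + 1), at 0.32 (adjusted p = 0.207) and 0.35 (adjusted p = 0.158), where the pseudocount exceeds most Dab2 levels, or on log2(TPM + 0.1), at 0.74 (adjusted p = 0.212) and 0.83 (adjusted p = 0.176).

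Dab2 was the 1 member called higher in each of these comparisons, where 2.72% (against late G1) and 1.9% (against early G1) of all genes were. The median over the 10 genes was 0.69 against late G1 and 0.51 against early G1, where all tested genes had medians of -0.01 and -0.00. Both comparisons share the G2 libraries. Against late G1 the CPM lay higher without overlap for 5 of the 10 genes, Gata4, Sox17, Dab2, Lama1 and Col4a2 (10.9% of tested genes), and against early G1 for Dab2 and Col4a2 (10.2%). The largest estimates against late G1 were 1.28 ± 0.48 for Sox17 (adjusted p = 0.15) and 1.24 ± 0.49 for Pdgfra (adjusted p = 0.178), neither called.

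With the replicate number as a block, made because same-numbered libraries deviated together in all phase comparisons, more members were called. Against untreated late G1, 5 genes were higher in G2, namely Sox7 (adjusted p = 0.0403), Sox17 (0.011), Pdgfra (1.30 ± 0.23, 0.000475), Dab2 (0.00141) and Lama1 (0.0287), where 8.08% of all genes were called higher. Against untreated early G1, Sox17 (0.0495), Dab2 (0.00924) and Lama1 (0.0333) were called higher, where 7.79% of all genes were. Pdgfra was also lower in late than in early G1 in this fit, by -0.83 ± 0.24 without auxin (adjusted p = 0.0148; 10.4% of all genes called lower). Without all 6 libraries numbered 3, the fit without the block called Pdgfra and Lama1 higher in G2 than in late G1, where 2.17% of all genes were called higher, and Dab2 fell short at adjusted p = 0.136.

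With auxin, all 10 genes were positive in G2 against late G1, with a median of 0.46, but 6 of 10 with a median of 0.10 without G2 library 2, where Gata4 went from 0.12 to -0.19 and Sox17 from 0.55 to -0.00. None was called (5.91% of all genes were), 3 had an unadjusted p under 0.05 (18.7% of all genes), and DESeq2 called Dab2 higher (5.62% of all genes). Dab2 was at 6.65, 10.1 and 7.64 CPM in G2 and 5.16, 6.03 and 5.67 CPM in late G1, which did not overlap (12.1% of tested genes were higher without overlap), with a change of 0.54 ± 0.16 (adjusted p = 0.0611) that came to 0.35 (adjusted p = 0.253) without G2 library 2. With the block, Sox7 (adjusted p = 0.0242), Pdgfra (0.0238) and Dab2 (0.0148) were called higher against late G1, where 9.84% of all genes were. Pdgfra was lower in late than in early G1 with auxin as well in that fit (adjusted p = 0.00831, 11.7% of all genes lower). Against early G1 the estimates ran from -0.16 for Pdgfra to 0.39 for Sox17 with a median of 0.16, and no member was called (3.88% of all genes; 0 at an unadjusted p under 0.05, against 17.1% of all genes, and none by DESeq2). Of the 10, 9 were positive with all libraries, 1 without G2 library 2 (median -0.13), and 10 without the early G1 library that held liver genes (median 0.28). Late against early G1 gave no edgeR call without auxin (7.02% of all genes) or with it (7.42%), and no unadjusted p under 0.05 (21.2% and 21.9% of all genes), and DESeq2 called no member. All 10 untreated estimates were negative, from -0.77 for Pdgfra to -0.01 for Col4a2 with a median of -0.16, and with auxin they ran from -0.79 for Pdgfra to 0.08 for Gata4, with 1 of 10 positive and 5 of 10 without the early G1 library that held liver genes. Gata6 was at 1.79, 1.86 and 1.63 CPM in untreated early G1, above all its late G1 values, and 13.2% of tested genes were lower in late G1 without overlap.

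**Figure D4:**
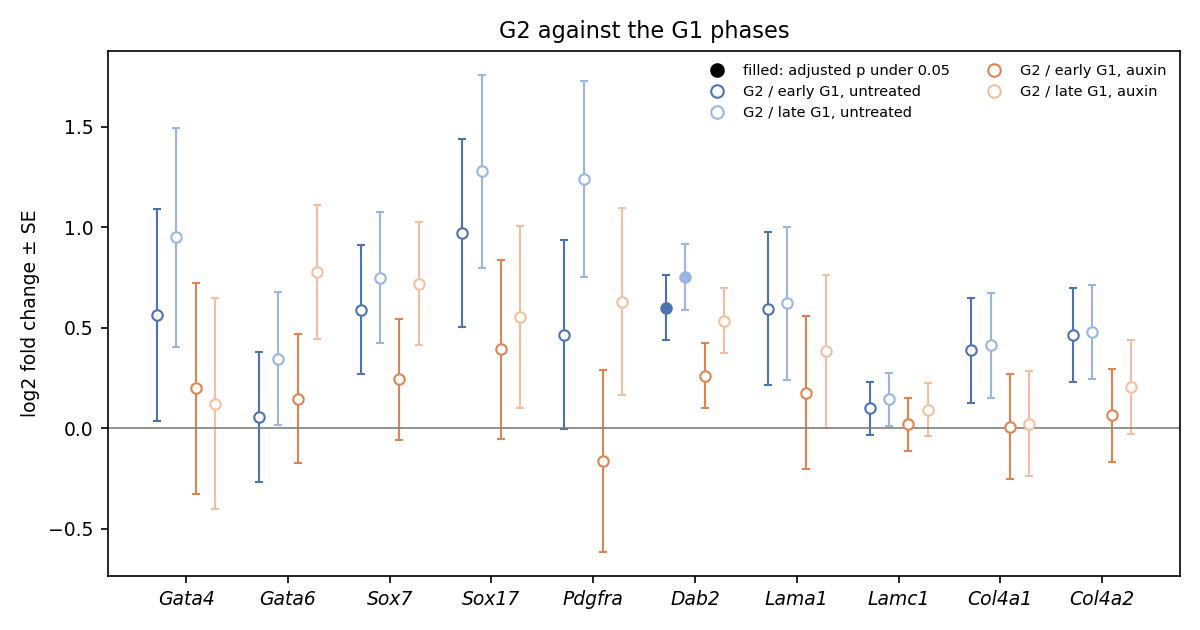
Log2 fold change of each gene in G2 against early G1 or late G1, without and with auxin (points, with bars of 1 SE); filled points have an adjusted p under 0.05. All untreated estimates are above 0, and the 2 filled points are Dab2 at 0.60 and 0.75.

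Several members differed by library number. Pdgfra and Lama1 were lowest in the library numbered 3 in 6 of 6 groups, and Gata4, Gata6 and Sox17 in 5 of 6, so that 5 of the 10 genes did so in at least 5 groups. Of all tested genes, 6.71% were lowest there in all 6 groups and 13.7% in at least 5. Over the 6 libraries of each number, Pdgfra averaged 4.29, 4.05 and 2.04 CPM, Lama1 77.4, 76.4 and 44.3 CPM, Sox17 1.30, 1.29 and 0.684 CPM and Gata4 0.874, 1.16 and 0.473 CPM for numbers 1, 2 and 3. Lamc1 (326, 380 and 327 CPM) and Dab2 (6.23, 6.81 and 6.19 CPM) showed no such drop. Sox7 was lowest in number 1 in 4 groups. The coefficient of variation fitted by edgeR placed Gata4 at the 95.8th percentile of all tested genes, Pdgfra at 94.7, Sox17 at 93.0 and Lama1 at 88.8, with Lamc1 at 40.2. By level, these genes stood at percentiles 18.6, 35.4, 21.8, 84.0 and 97.9 in that order. Genes of like level were not compared, so the ranks do not separate low level from unusual spread.

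Some other genes of the extraembryonic endoderm were low in number 3 as well, and others were not. Of the 23 tested genes of a list of 30, 6 were lowest in number 3 in all 6 groups, namely Cubn, Dkk1, Foxa2, Foxq1, Lrp2 and Podxl, and Hnf4a was in 5. Apoe, Cited1, Krt19, Sparc and Tfpi were lowest there in 0 groups and averaged highest in number 3. Cubn, the cubilin receptor of visceral endoderm, averaged 15.5, 13.4 and 4.98 CPM for numbers 1, 2 and 3, and its partner Lrp2, megalin, 90.4, 94.2 and 67.6 CPM. Sparc, a matrix protein of parietal endoderm, averaged 159, 153 and 196 CPM, and Krt19 9.53, 8.14 and 18.8 CPM. What the numbers stand for is not given in the labels, and their part in the members' values beyond these fits was not tested.

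**Figure D5:**
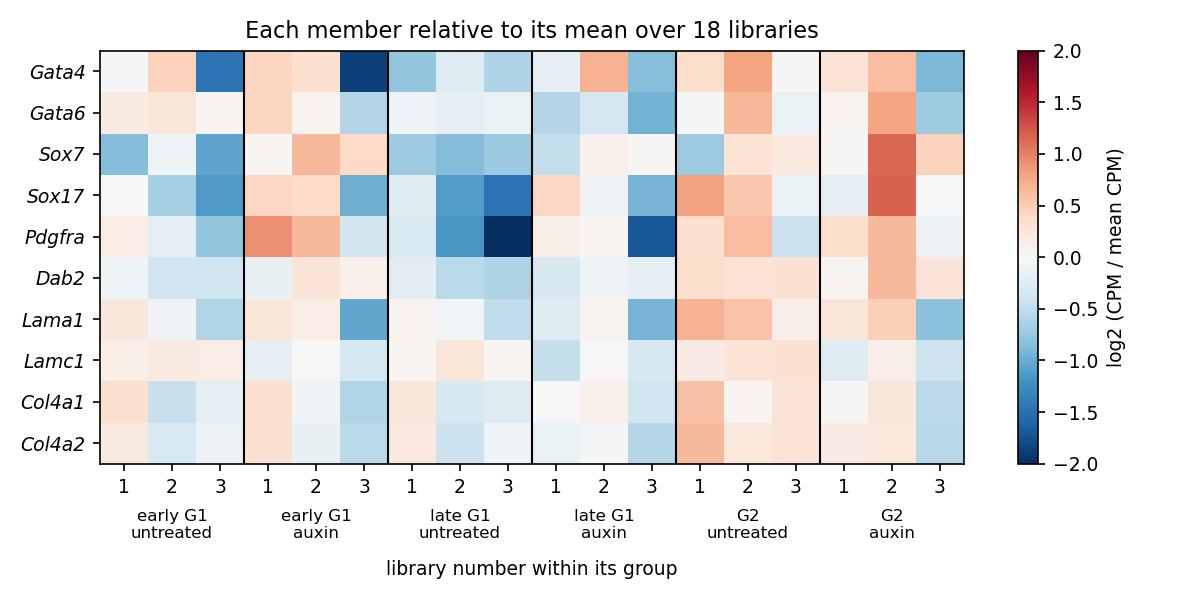
Each gene's CPM relative to its mean over the 18 libraries (log2, colour), with libraries in columns by group and number. Columns numbered 3 are blue for Gata4, Pdgfra and Lama1 in most groups, and the G2 auxin column numbered 2 is red for Gata6, Sox7, Sox17 and Dab2.

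For auxin averaged over phases, the 23 other primitive endoderm genes had 1 call up and 1 down, where 2.6% and 3.09% of all tested genes were called. Their median was 0.21 on the log2 scale against 0.01 over all genes. Without the early G1 library that held liver genes the median was 0.14, with the same 2 genes called. Cited1, a transcriptional coregulator, rose by 0.95 ± 0.20 (adjusted p = 0.0062), from 0.441 ± 0.14 to 1.06 ± 0.22 CPM in early G1 (SD, n = 3). Tfpi, an inhibitor of the tissue factor pathway, changed by -0.36 ± 0.07 (adjusted p = 0.0039), from 54.6 ± 10 to 37.6 ± 2.4 CPM in late G1. In G2 against late G1 without auxin, the same 23 genes had a median of 0.61, with 17 positive and 2 called higher (2.72% of all genes). Against early G1 the median was 0.22, with 15 positive. Their auxin effect was lower in G2 than in early G1, with a median difference of -0.36 and 5 of 23 positive. That difference was -0.10 without the early G1 library that held liver genes. Between phases, Fst, the activin antagonist follistatin, was higher in G2 than in late G1 by 1.20 ± 0.17 without auxin and 0.96 ± 0.18 with it (adjusted p = 0.0002 and 0.0024). Foxa2 was higher by 2.58 ± 0.65 without auxin (adjusted p = 0.0249), from at most 27 counts in any library.

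Of 20 tested basement membrane genes other than the members, 1 rose with auxin on average and none fell, where 2.6% and 3.09% of all tested genes did. It was Tinagl1, a matrix protein that binds integrins and laminin, at 1.25 ± 0.24 (adjusted p = 0.0058). The list's median was -0.07. Of 16 matrix synthesis and receptor genes, Itga3 (0.40 ± 0.09, adjusted p = 0.013), the alpha chain of a laminin-binding integrin, and Serpinh1 (0.26 ± 0.06, adjusted p = 0.0108), the collagen chaperone, rose and none fell, with a median of 0.03.

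Of 22 entries for FGF and PDGF signalling, 2 rose and 1 fell, where 2.6% and 3.09% of all tested genes did. Pdgfb, which encodes a ligand for PDGF receptors, rose by 1.16 ± 0.17 (adjusted p = 0.0005), from 4.63 ± 1.4 to 9.60 ± 2.9 CPM in early G1. Fgfr3 rose by 0.88 ± 0.13 (adjusted p = 0.0005), and Fgf4, the ligand through which ES cells drive primitive endoderm formation, changed by -0.40 ± 0.06 (adjusted p = 0.0007). Among 4 tested genes of the GATA family and its cofactors, Gata2 rose (2.09 ± 0.20).

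Markers of other fates moved with auxin beside the members. Of 19 ES cell identity genes, 11 fell and none rose, where 3.09% and 2.6% of all tested genes did. Their median was -0.29, and Klf2 (-1.94 ± 0.21), Klf4 (-1.09 ± 0.12) and Nanog (-0.29 ± 0.04) were among the 11. Of 13 tested trophectoderm markers, 6 rose, Dlx3 (2.76 ± 0.37) and Cdx2 (1.22 ± 0.19) among them, and Tfap2c fell (-0.50 ± 0.10). Dlx3 had only 0 to 40 counts per library and Cdx2 8 to 34. The list summed to 53.4 to 88.2 CPM per untreated library and 80.2 to 119 CPM per auxin library. In TPM the sums showed no such shift, at 5.85 to 11.42 untreated and 7.25 to 10.93 with auxin. Of 7 tested definitive endoderm and mesoderm markers, Eomes rose (1.16 ± 0.15) and Kdr fell (-0.86 ± 0.13, but 0.0278 on log2(TPM + 1) with a common median), while Cer1, Gsc and Mesp1 had at most 4 counts in any library. Kdr group means were 0.0467 to 0.167 TPM, far under that pseudocount. Eomes, and Gata2 of the GATA family, are also in the trophectoderm list and are counted among the 6 that rose there. Of 4 tested neural markers, Nes rose (0.38 ± 0.09). The part of these shifts in the values of the members was not tested.

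Over the 6 group means of centred log2 CPM, the patterns nearest to Sox7 among 11464 other genes were those of Tmem125, Glipr2 and S100a6, with root mean square differences of 0.11, 0.14 and 0.15 against a spread of 0.40 for Sox7 itself. The nearest to Lamc1 were Pcnxl3, Chst3 and Aak1, at 0.03, 0.04 and 0.04 against a spread of 0.19.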

How the data were processed

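The authors deposited a table of estimated counts per gene, in whole numbers, and a table of TPM to 2 decimals; per the submitters' processing notes STAR, RSEM and the mm9 build were used, with versions not given in the sources used here. Groups and replicate numbers came from the sample titles. The 10 members and the 11 gene lists (176 symbols) were chosen with earlier results of these data known. After filterByExpr and TMM scaling, edgeR 4.0.16 (R 4.3.3) tested the counts by a robust quasi-likelihood fit of 6 group means over 18 libraries, with 13 contrasts and Benjamini-Hochberg adjustment over 16011 genes. A gene was called at an adjusted p under 0.05. Standard errors were derived from the F statistics. The test was checked on simulated counts with planted changes larger than that of Lamc1. These counts held no effect of library number, so the check does not cover that feature of the data. Depth was 24841963 to 37587322 counts per library, and replicates differed by a chi-square per degree of freedom of 14.7 to 53.8, far above counting error; the fitted coefficient of variation was 0.142.

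Same-numbered libraries deviated together (every correlation above 0.1) in auxin within early G1 (0.41 to 0.53) and late G1 (0.49 to 0.50) and in all phase comparisons (lowest 0.32), but not in G2 with auxin (0.056). A block for the number is therefore set beside the results where they did, and beside the auxin average for Pdgfra only. All members entered every comparison, and those not named singly are given by count and range. From each list, at most 6 genes called for auxin are named, smallest p first, or 2 of the highest level where none was called; Foxa2 and Fst were added after their values were seen. The result of 1 list, of SoxF and adaptor genes, is not reported here. Alternatives were DESeq2 1.42.0, limma 3.58.1 on log2(TPM + 1) and log2(TPM + 0.1), other factors, filters and fits, and leaving out libraries; those without all 6 libraries numbered 3 were chosen after seeing the data. Promoter windows were taken from RefSeq. Figures were drawn from these values. ChIP-seq, ATAC-seq and MNase-seq libraries were not analysed here.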

Additional observations from a re-analysis of the deposited data

How the results depend on the processing

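Counts of members called, against the values in the report, moved as follows. The calls over all genes changed with the setting as well, so these counts describe the fits and are not results about the members. With the replicate block they were 2 for early G1 auxin, 1 for late G1 auxin and 1 for G2 auxin (Lamc1, -0.42, among 562 calls over all genes), 1 for late against early G1 without auxin and 1 with it, 3 for G2 against early G1 and 5 against late G1 without auxin, and 3 against late G1 with auxin; for the auxin average, where numbers do not pair by the limit used, the block called Sox7, Pdgfra and Lamc1, 3 in all, among 3939 calls over all genes. All 18 libraries correlated best with their own number, a hint from the data and not from the design. For G2 against early G1 without auxin the count was 0 with no low-count filter, with only the groups compared, on all TPM scales and without the 3 untreated or all 6 libraries numbered 3, the latter also with the block; for G2 against late G1 without auxin it was 0 on the TPM scales and without the 3 untreated libraries numbered 3, 2 without all 6 and 4 when the block was added. The auxin average gave 1 call (Lamc1) on log2(TPM + 1) and log2(TPM + 0.1) and without the 3 untreated libraries numbered 3, and 0 without all 6. DESeq2 gave 1 call for G2 against late G1 with auxin; the block without number 3 gave 2 there and 1 for late against early G1 with auxin. Leaving out 1 library gave 0 to 1 calls for G2 against early G1 and against late G1 without auxin, and 0 to 1 for the latter with auxin. Kdr changed sign on log2(TPM + 1) with a common median, to 0.0285 in late G1 and 0.0278 in the average. Its group means were 0.0467 to 0.167 TPM, far under that pseudocount, so its changes are compressed on that scale. The cause of these shifts was not tested. Over all genes, the auxin average split into 416 higher and 494 lower calls, and into 61 and 716 on log2(TPM + 1), where the median of all genes was -0.08; the split was 67 and 874 on log2(TPM + 0.1), whose median of -0.16 stands beside -0.56 for Lamc1, and 473 and 346 with a common median. Fitting only the groups compared was not run for the auxin average, which uses all groups. Of the single-member values under the alternatives, 3610 kept their direction and side of the threshold, 221 uncalled ones changed sign, 32 lost a call and 27 gained one. With 7 to 45 counts of Gata4 and 10 to 87 of Sox17 per library, depth limits what can be detected for these genes.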
